A study of Drosophila melanogaster with 3 samples.

Results

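Small nucleolar RNA (snoRNA) genes were taken as the genes of the Ensembl annotation of the fly genome (BDGP6, release 115) whose symbol begins with snoRNA: on the 6 chromosome arms. There were 257 of them among 18164 annotated genes: 109 named as box C/D, 115 named as box H/ACA and 33 whose symbol gives neither class. Of the 257, 236 lay inside the body of a longer gene on the same strand, called the host here, and 21 had no such gene around them. Together the 236 had 85 different hosts, and 230 of them sat wholly within an intron of a host transcript. The question was where CG8319, a zinc finger protein, was found on chromatin relative to these short genes and to the start sites of their hosts.

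The data are chromatin immunoprecipitation followed by sequencing (ChIP-seq) from whole flies of the prepupal stage, males and females together, with age not known. The 3 biological replicates form 1 group, all from 1 transgenic line, strain CG8319-GFP, in which GFP is joined to the C terminus of CG8319, and an antibody against GFP was used. The promoter that drives the fusion is not given in the sources used here, and no untagged flies were analysed here, so every comparison below is between sets of genes. Whole animals mix all tissues, and peak lists hold no expression with which the stage or tissue could be checked.

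A peak list gives regions of enriched sequence, each with a summit (its highest point) and a signal value from the authors' peak caller. The optimal list, as the authors name it, held 4410 peaks, and the pooled list and each replicate list held 30000 regions that include background. All 4410 optimal peaks were the 4410 strongest regions of the pooled list, so a place on the list does not by itself show a region in each replicate. Sequencing depth is unknown, since the lists hold no read counts. A gene is called bound where an optimal summit lay within 500 bp of one of its start sites. For each replicate, the 4410 regions of highest signal were used in the same way. Fragments of 200 to 800 bp, per the labels, limit how finely a summit can be placed.

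snoRNAs are short nuclear RNAs that guide chemical modification of other RNAs, mainly ribosomal RNA. Box C/D snoRNAs direct methylation of ribose by fibrillarin, and box H/ACA snoRNAs direct conversion of uridine to pseudouridine by dyskerin, called Nop60B in flies. Most animal snoRNAs have no promoter of their own: they are cut from introns after the host transcript is spliced. Hosts are often genes for ribosomal proteins or other parts of the translation machinery, or non-coding genes, the Uhg genes of flies, known mainly for the snoRNAs in their introns. The promoter that serves a snoRNA is therefore, as a rule, that of its host.

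The annotated genes carry the letters of their class. Of the 109 genes named as box C/D, 74 held both the C box TGATGA within their first 20 bases and the D box CTGA within their last 20. Of the 115 named as box H/ACA, 106 held ACA exactly 3 bases before the end. The sequences of 4 snoRNA genes are shown because their annotated starts lie within 500 bp of an optimal summit. They are read 5′ to 3′ from the RefSeq genome (Release 6, dm6 coordinates), with the C and D boxes or the ACA box in capitals. The first 3 are box C/D genes, snoRNA:U49:66Da in RpL14 (chr3L:8601473-8601552, plus strand), snoRNA:Or-CD11a in RpL28 (chr3L:3222475-3222541, minus strand) and snoRNA:Me28S-A774b in RpS12 (chr3L:13023580-13023652, plus strand). The last is box H/ACA, snoRNA:Psi18S-920 in RpL10Ab (chr3L:11822984-11823124, plus strand).
snoRNA:U49:66Da: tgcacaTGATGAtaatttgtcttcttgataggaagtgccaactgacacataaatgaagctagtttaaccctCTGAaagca
snoRNA:Or-CD11a: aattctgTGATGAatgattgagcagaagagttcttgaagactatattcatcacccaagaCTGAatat
snoRNA:Me28S-A774b: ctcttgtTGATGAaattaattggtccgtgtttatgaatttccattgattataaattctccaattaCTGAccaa
snoRNA:Psi18S-920: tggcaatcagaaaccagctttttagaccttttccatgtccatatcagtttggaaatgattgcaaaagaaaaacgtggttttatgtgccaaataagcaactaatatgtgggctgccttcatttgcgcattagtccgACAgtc

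CG8319 summits were rare at the snoRNA genes themselves. An optimal summit lay within 500 bp of the annotated start of 10 of 257 snoRNA genes (3.89%), against 12.0% of all genes. In the replicates' own top regions the count was 13 in replicate 1, 10 in replicate 2 and 10 in replicate 3, a share of 4.28% ± 0.674 (SD, n = 3). The share of snoRNA genes was lower than that of all other genes in 3 of 3 replicates, by 8.02, 8.47 and 8.32 percentage points, a gap many times the spread between replicates. That spread is over 3 lists scored on the same genes and does not measure uncertainty over genes. The share of all genes includes genes with several start sites, which have more chances to lie near a summit. Of protein-coding genes with 1 start site, 9.97% had an optimal summit within 500 bp, nearer to the 3.89% of snoRNA genes but still above it. No snoRNA gene body held an optimal summit. Any listed summit of the pooled list, at whatever rank, came within 500 bp of 39 snoRNA starts (15.2%), against 36.2% of all genes, and lay inside 2 snoRNA gene bodies, those of snoRNA:Me18S-A1806 and snoRNA:Or-ACA7, both without a host. snoRNA genes are short, with a median of 134 bp and a range of 46 to 511 bp, so few summits could fall within one.

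These 10 snoRNA genes had 9 distinct summits, which were, with 1 exception, summits near a host start. All lay upstream of the snoRNA start, by 168 to 500 bp, and 9 of the snoRNA genes lie in a bound host. Besides the 4 genes printed above, they were snoRNA:Psi28S-2949 and snoRNA:Or-aca5 in Uhg4, which share 1 summit, snoRNA:Psi28S-1232 in RpL17, snoRNA:Psi18S-1086 in Sf3b3 and snoRNA:Or-aca2, which lies in both RpS6 and the pseudogene CR33222. The strongest was the peak in front of snoRNA:Or-CD11a, with signal 65.97, 117 and 96.6 in replicates 1, 2 and 3 and 279 in the optimal list, 490 bp upstream of the snoRNA but 71 bp upstream of RpL28. The exception was snoRNA:Or-ACA6, an orphan H/ACA gene (one with no known target) without a host, whose summit lay 482 bp upstream in an intron of egr, with signal 17.9, 68.6 and 26.6 in replicates 1, 2 and 3. Its optimal signal was 113, and it ranked among the top regions of 2 of 3 replicates.

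A further 26 snoRNA genes had their nearest optimal summit between 500 and 1000 bp away, and 25 of these lie in a bound host. At the edge of the window, the summit nearest snoRNA:U49:66Da was 500 bp from its start and counted, and that nearest snoRNA:Or-CD13 was 515 bp away and did not. Over all 257 genes the nearest optimal summit was a median of 4898 bp away, and none was closer than 168 bp.

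**Figure D1:**
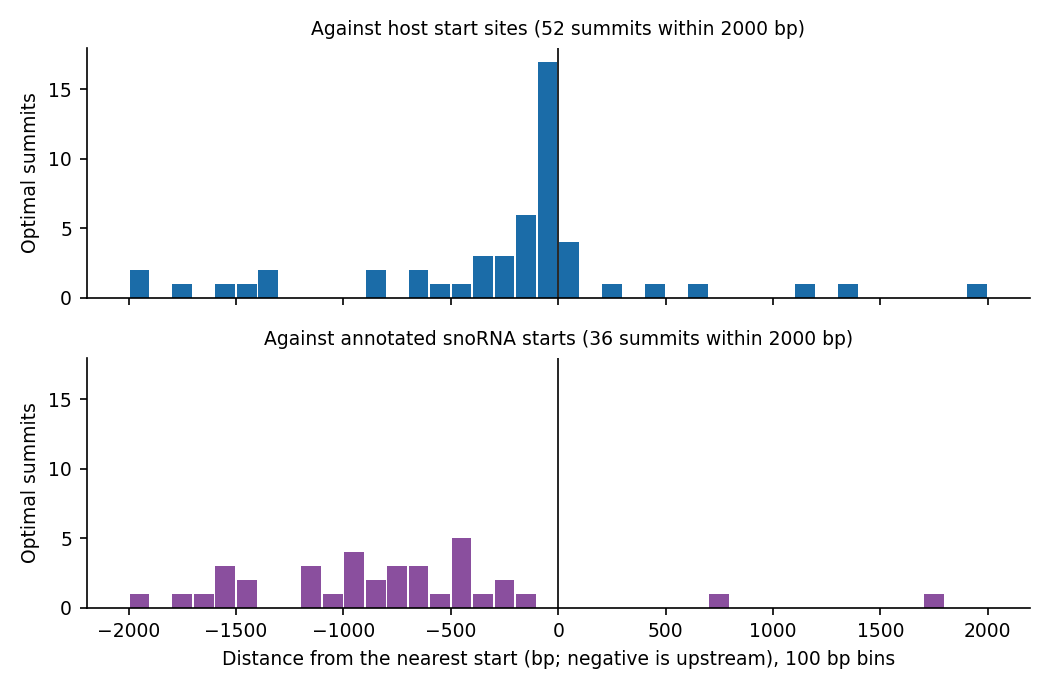
Number of optimal summits in bins of 100 bp (y axis) by distance in bp from the nearest host start site (upper panel) or the nearest annotated snoRNA start (lower panel), negative values upstream. Of the 52 summits within 2000 bp of a host start, 17 fell in the 100 bp just upstream; against snoRNA starts there was no such concentration, and the bins from 100 bp upstream to 700 bp downstream were empty.

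The hosts were bound far more often than other genes. Of the 85 hosts, 35 had an optimal summit within 500 bp of a start site (41.2%), against 14% of the 13945 protein-coding genes. In the replicates' own top regions 36, 32 and 31 hosts had one, a share of 38.8% ± 3.11 (SD, n = 3). The excess over protein-coding genes was 27.2, 23.3 and 22.3 percentage points in replicates 1, 2 and 3, 24.3 ± 2.62 on average. All of these differences exceed the SD between replicates severalfold, and since 1 group of 3 replicates offers no contrast between samples, no test was run on them. That SD is over 3 lists scored on the same genes, so it does not measure the uncertainty of a share over 85 hosts. Counting only optimal peaks that were among the top regions of all 3 replicates left 23 bound hosts (27.1%), against 9.63% of protein-coding genes. The lowest counted host was RpS6, with optimal signal 91.7; the highest-ranked host just outside the optimal list was CG42564, with pooled-list signal 84.5.

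Genes with several start sites have more chances to lie near a summit. Among genes with 1 start site, 15 of 41 hosts (36.6%) and 9.97% of protein-coding genes were bound. With 2 start sites the values were 7 of 20 hosts (35.0%) and 21.2%, and with 3 or more they were 13 of 24 hosts (54.2%) and 34.3%. The hosts were above the protein-coding genes in each of these classes.

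**Figure D2:**
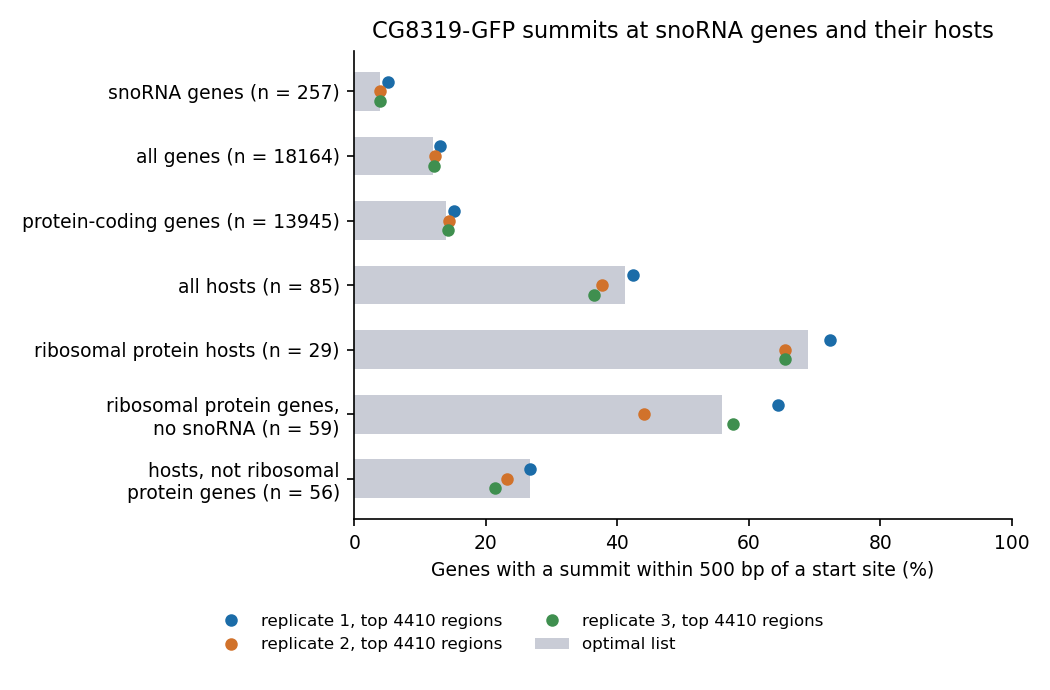
Share of genes (x axis, %) with a summit within 500 bp of a start site for each set of genes; bars give the optimal list and points the 4410 strongest regions of each replicate. The snoRNA genes lie below all genes (3.89% against 12.0%) and the hosts above protein-coding genes (41.2% against 14%) in the optimal list and in every replicate.

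Through their hosts, 105 of the 257 snoRNA genes (40.9%) lay in a bound transcription unit. This held for 57 of 115 box H/ACA genes (49.6%), 37 of 109 box C/D genes (33.9%) and 11 of the 33 others (33.3%). snoRNA genes of 1 host share its peak, so these are not independent counts. RpS5a alone carries 14 of the H/ACA genes in bound hosts, and the unbound Arpc2 carries 17 H/ACA genes. For comparison, 41.2% of the hosts and 14% of protein-coding genes were bound. No such share was taken over other genes that lie inside longer genes. The shares by class are therefore not shown to be high or low. Within bound hosts the snoRNA genes began a median of 1070 bp downstream of the nearest host start before them, and 84 of the 105 were farther than 500 bp from it. That start need not be the one near the summit, and the distance from the latter can be longer. For the snoRNA genes in RpL23A, for example, it was the start of the unbound Uhg7. By number of snoRNA genes carried, 13 of 46 hosts of a single snoRNA gene, 15 of 24 hosts of 2 to 4 and 7 of 15 hosts of 5 or more were bound.

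Ribosomal protein genes made up much of the bound set. Of the 29 hosts that encode a cytoplasmic ribosomal protein, 20 were bound (69.0%), and they carry 61 of the 105 snoRNA genes in bound hosts. The other 56 hosts, of all kinds, were bound in 15 cases (26.8%), among them 13 of 45 protein-coding hosts (28.9%). The latter still exceeded the share of all protein-coding genes in 3 of 3 replicates, by 16.0, 10.1 and 10.3 percentage points, and all 56 did so by 11.7, 8.85 and 7.25 points. By number of start sites, the excess of the 56 was small for those with 1 or 2: 4 of 28 were bound with 1 start site (14.3% against 9.97% of protein-coding genes) and 3 of 12 with 2 (25% against 21.2%). With 3 or more it was 8 of 16 (50% against 34.3%). In replicate 3 those with 2 start sites were below the protein-coding genes, at 8.33% against 20.6%. The ribosomal protein genes that host no snoRNA were bound in 33 of 59 cases (55.9%), and hosting ones were higher than these by 8.0, 21.45 and 7.89 points in replicates 1, 2 and 3. That difference averaged 12.45 ± 7.80 points and fell to 7.945 without replicate 2. It also changed sign with the number of start sites: 11 of 13 hosts against 12 of 31 non-hosts were bound with 1 start site, but 4 of 8 against 17 of 20 with 2.

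Among ribosomal protein hosts the strongest peak was that of RpL28, already described, followed by RpS20 and RpS5a. RpS20, which carries 2 H/ACA genes, had signal 60.5, 122 and 91.6 in replicates 1, 2 and 3, with the summit 172 bp upstream. That summit was slightly nearer to the start of the divergent gene CG17271. RpS5a carries 14 H/ACA genes, more than any other bound host, and its main summit was 72 bp upstream of its start with signal 62.9, 92.3 and 88.9. It had a second, weaker optimal summit 273 bp upstream, with signal 89.6 against 245 for the first.

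RpL14, RpL23A and RpL13A, which carry C/D genes, had optimal signals of 219.6, 211 and 210.3. Their replicate signals were 65.8, 94.4 and 60.7 at RpL14, and 58.3, 65.7 and 82.7 at RpL23A. At RpL13A they were 67.9, 70.8 and 56.1. All 3 genes ranked among the top regions of every replicate. RpS3A, on chromosome 4, had signal 53.9, 88.0 and 51.8 with its summit 39 bp upstream. RpS7, host of 7 H/ACA genes, had signal 78.8, 61.6 and 25.4, and ranked 515 in replicate 1 but 4314 in replicate 3.

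The remaining bound ribosomal protein hosts had optimal signals from 91.7 to 179. They were RpS4, RpS16, RpL30, RpL17, RpL4, RpS12, RpL11, RpL22, RpL10Ab, RpL7A, sta and RpS6. RpL7A and RpS6 reached the top 4410 of 1 replicate only. RpS6 had signal 14.3, 58.0 and 17.3, at rank 9601, 2939 and 7184 in replicates 1, 2 and 3, and its summit lay nearer to the start of bys.

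Bound hosts outside the ribosomal protein class included the 3 strongest peaks of all. Stt3A, a catalytic subunit of the oligosaccharyltransferase that glycosylates proteins, had signal 118, 262 and 118 in replicates 1, 2 and 3 and 499.5 in the optimal list, where it ranked 162. Its summit, 393 bp upstream, was nearer to the start of bves. lola, which encodes a family of BTB zinc finger transcription factors, had signal 63.4, 192 and 153.5 with its summit 441 bp upstream of an internal start. Msp300, a giant protein that anchors nuclei in muscle, had signal 93.7, 166 and 92.2. All 3 ranked in the top 1000 of every replicate.

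SC35, a splicing factor of the SR family, had signal 69.4, 136.5 and 20.01, and in replicate 3 fell outside the top regions at rank 5866. drn, with signal 46.5, 109.7 and 67.1, ranked among the top regions of all replicates. So did Irbp, the fly Ku70 protein of DNA repair, at 47.4, 67.4 and 54.4, and pAbp, the poly(A)-binding protein, at 52.4, 70.6 and 41.2.

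kra, a regulator of translation and host of 8 H/ACA genes, had signal 29.9 and 61.1 in replicates 1 and 2 and no listed region in replicate 3. Sf3b3, a subunit of the spliceosomal SF3b complex and host of 9 snoRNA genes, likewise had 19.6 and 57.7 and no listed region in replicate 3. Usp10, Dys (dystrophin) and eEF1alpha1, the translation elongation factor, had optimal signals of 119, 111 and 110.5. The weakest of the class was CR33222, which shares the peak of RpS6.

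**Figure D3:**
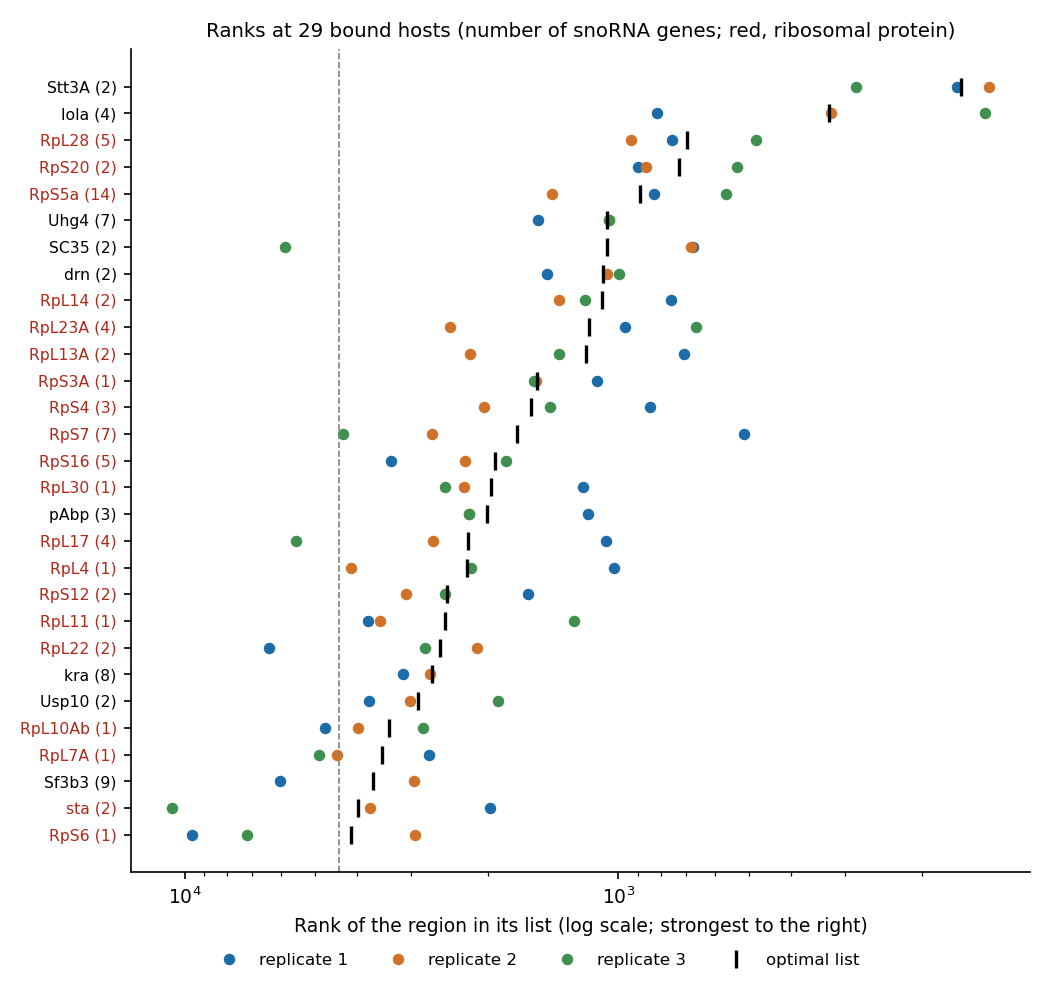
Rank of the region at the 20 bound ribosomal protein hosts and at the 9 other bound hosts that carry 2 or more snoRNA genes, in the optimal list (black bar) and in each replicate list (points), on a log scale with the strongest to the right. The dashed line marks rank 4410 and the numbers in brackets count snoRNA genes; most points lie right of the line, and the lower rows (RpL7A, Sf3b3, sta, RpS6) scatter across it.

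The host peaks were of ordinary strength. The median optimal signal at bound hosts was 158, against 157 at the 1712 promoter peaks (those with a summit within 500 bp of any start) and 145 over all optimal peaks. The median replicate rank at bound hosts was 1412, 2275 and 1614 of 30000 in replicates 1, 2 and 3. The 35 hosts had 34 distinct strongest peaks, of which 23 lay among the top regions of all 3 replicates, 7 of 2 and 4 of 1. In replicates 1, 2 and 3 the summits lay a median of 23.5, 14 and 15 bp from the optimal summit, with 26 of 34, 30 of 34 and 28 of 32 within 50 bp. This closeness is partly built in: all 3 replicates entered the optimal list, and only regions that overlap the peak were compared. The largest shift was 329 bp, in replicate 1.

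Host summits sat close to, and mostly upstream of, the start site. In 29 of 35 bound hosts the strongest summit was upstream, and the median distance was 71 bp, against 153 bp over all promoter peaks. The share of upstream summits was not counted over all promoter peaks, so an upstream place is not shown to be particular to hosts. Within 100 bp of the start were 21 of the 35 (60.0%), against 29.7% of promoter peaks. This closeness was carried by the ribosomal protein hosts, with a median of 56.5 bp and 18 of 20 within 100 bp. The other bound hosts had a median of 265 bp and 3 of 15 within 100 bp. For 28 of 35 bound hosts the nearest start of any gene was the host's own, and for 7 it belonged to a neighbour. Those 7 peaks cannot be assigned to the host alone. Several of the 28 also had a neighbour's start within 500 bp of the summit, so the same holds for them. Examples are RpL28 with eIF1, RpL14 with Nelf-E, RpL13A with Dph4 and Spec2, and RpL4 with BCAS2. At the edge of the window, the summits of lola at 441 bp and pAbp at 459 bp counted, and the nearest host beyond it, tou, had its summit at 574 bp.

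The maps of 6 hosts show how summits and snoRNA genes lie apart. In RpS5a the snoRNA genes begin over 1000 bp into the gene, with both summits in front of it. In Uhg4 and RpL28 a single optimal summit lies about 70 bp upstream (69 and 71 bp), and the snoRNA genes follow at intervals along the body. Introns were not free of peaks: 38 optimal summits lay inside host bodies, 23 of them more than 500 bp from any host start. These were mostly in long genes, with 6 in tou and 4 each in drn and kis. The 197 introns that hold snoRNA genes held 13 of the 38, none of them within a snoRNA gene.

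**Figure D4:**
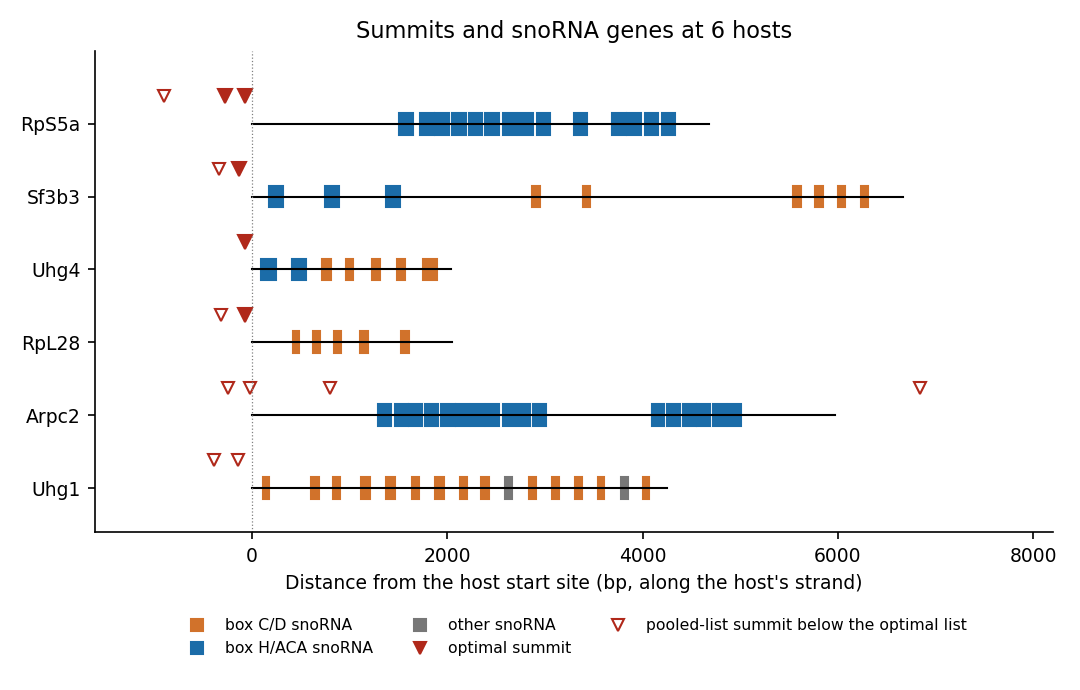
Position of snoRNA genes (boxes), optimal summits (filled triangles) and pooled-list summits below the optimal list (open triangles) along 6 hosts, in bp from the host start. The optimal summits of RpS5a, Sf3b3, Uhg4 and RpL28 lie in front of the gene, at 72, 132, 69 and 71 bp for the strongest of each, and none lies at a snoRNA gene; Arpc2 and Uhg1 have pooled-list summits alone.

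Host promoters are shown because the summits fall there. Each line gives the 100 bases just before the start site, on the strand of the gene, with the 11 bases centred on the optimal summit in capitals. None of these stretches overlaps an annotated exon. The bound hosts are RpL28 (chr3L:3222961-3223060, minus), RpS5a (chrX:17148265-17148364, minus), RpL14 (chr3L:8600906-8601005, plus), RpL23A (chr3L:1668655-1668754, minus), RpL13A (chr3R:5624374-5624473, plus), RpS12 (chr3L:13023252-13023351, plus) and RpS3A (chr4:67208-67307, minus). RpL3 (chr3R:11221794-11221893, plus), which carries 4 snoRNA genes and is not bound, is added for comparison and has no capitals.
RpL28: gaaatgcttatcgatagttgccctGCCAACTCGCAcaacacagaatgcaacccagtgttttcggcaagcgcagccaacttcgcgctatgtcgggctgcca
RpS5a: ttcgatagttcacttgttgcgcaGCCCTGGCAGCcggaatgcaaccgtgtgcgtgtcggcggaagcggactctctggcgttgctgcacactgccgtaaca
RpL14: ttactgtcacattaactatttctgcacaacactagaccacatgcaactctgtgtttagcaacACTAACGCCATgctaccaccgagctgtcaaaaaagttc
RpL23A: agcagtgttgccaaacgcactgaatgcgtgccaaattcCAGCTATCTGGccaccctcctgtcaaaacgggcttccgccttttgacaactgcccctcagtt
RpL13A: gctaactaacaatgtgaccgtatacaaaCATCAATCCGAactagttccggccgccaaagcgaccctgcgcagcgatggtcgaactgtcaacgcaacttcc
RpS12: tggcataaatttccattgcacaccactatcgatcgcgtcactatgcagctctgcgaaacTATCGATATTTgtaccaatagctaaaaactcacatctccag
RpS3A: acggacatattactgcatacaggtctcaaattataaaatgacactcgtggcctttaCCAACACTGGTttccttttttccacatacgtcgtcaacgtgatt
RpL3: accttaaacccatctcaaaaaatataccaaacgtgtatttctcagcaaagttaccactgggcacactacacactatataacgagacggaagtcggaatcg

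On average, host summits held less A or T than CG8319 summits as a whole. Over all 4410 optimal peaks the 101 bp around the summit held 66.5% A or T, against 55.0% at 300 bp to either side, and 65.8% over the 1712 promoter peaks. Over the 36 distinct peaks at hosts the value was 57.4% ± 11.1 (SD over peaks), with 58.2% at the flanks. Promoter peaks within 100 bp of a start, where most ribosomal protein host summits lie, were lower than the rest too: the 509 of them held 62.6% ± 10.2, which narrows the gap to host peaks. In the replicates' own top regions, host peaks were lower than promoter peaks by 7.46 ± 1.24 percentage points (SD, n = 3). The difference lay in the ribosomal protein hosts, at 52.7% ± 9.07 (21 peaks), below their own flanks at 59.6%. The 35 peaks at ribosomal protein genes without a snoRNA gene were alike, at 54.7% ± 9.08. The 15 peaks at other hosts, at 64.1% ± 10.5, were close to the mean of all promoter peaks.

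**Figure D5:**
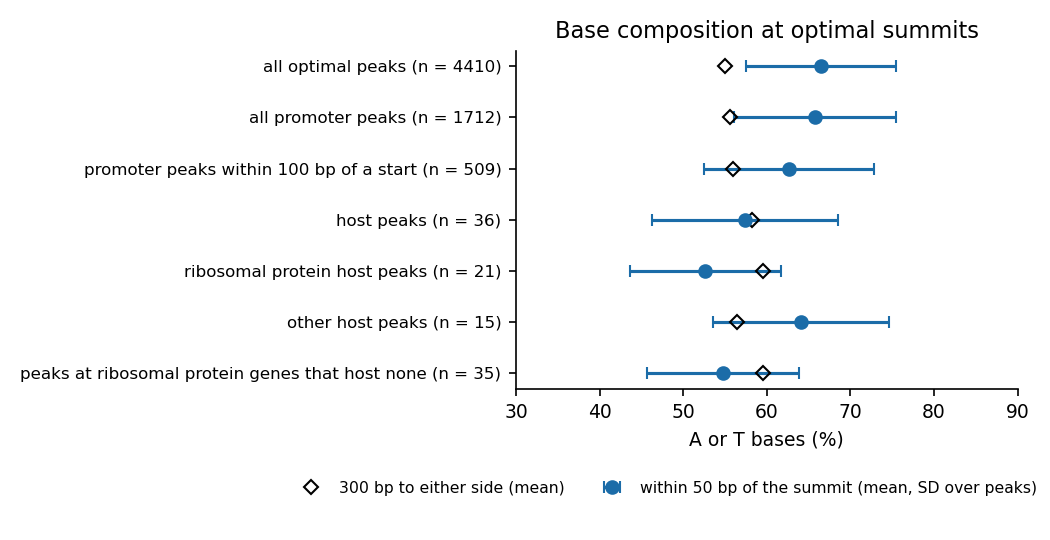
Mean share of A or T bases (x axis, %) in the 101 bp around optimal summits (filled points, bars are SD over peaks) and at 300 bp to either side (open diamonds). All optimal peaks and promoter peaks are richer in A or T than their flanks, other host peaks too (64.1% against 56.4%), whereas ribosomal protein peaks, with or without a snoRNA gene, are poorer than theirs.

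Transcription of ribosomal protein genes starts within a run of pyrimidines. The letters CTTT on the coding strand, within 5 bp of a start site, occurred at 31 of 85 hosts (36.5%), against 8.07% of protein-coding genes and 12.6% of bound ones. They occurred at 19 of 35 bound hosts (54.3%) and at 12 of 50 hosts without an optimal peak (24.0%). Among ribosomal protein genes they were as common in the 29 hosts (65.5%) as in the 59 non-hosts (64.4%), and as common in the 20 bound hosts (65.0%) as in the 9 unbound ones (66.7%). Among the other hosts they occurred at 6 of 15 bound (40.0%) and 6 of 41 unbound ones (14.6%). A gene was counted if any of its start sites matched, so several start sites give more chances. Of these other hosts, 8 of the 15 bound and 8 of the 41 unbound have 3 or more start sites. The shares were not matched for this. The 14 bases around the start site, from 5 before it, are shown for 3 bound hosts and the unbound RpL3, with CTTT in capitals (chr3L:8601001-8601014, chrX:17148256-17148269, chr4:67199-67212 and chr3R:11221889-11221902).
RpL14: agttCTTTccttct
RpS5a: taacatgttCTTTt
RpS3A: tgattcgacCTTTt
RpL3: aatcgtttCTTTtc

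Known promoter motifs were counted on both strands in the 300 bp from 250 before to 50 after each start site. The DRE, TATCGATA, was in 19 of 85 hosts (22.4%) and 10.2% of protein-coding genes, in 9 of 35 bound hosts (25.7%) and 10 of 50 unbound ones (20%). The E-box CACGTG, the site of Myc and Max proteins, was in 16 hosts (18.8%) against 5.30% of protein-coding genes, in 5 of 35 bound (14.3%) and 11 of 50 unbound hosts (22.0%). That order was not shared by the classes: it was in 4 of 20 bound and 0 of 9 unbound ribosomal protein hosts, in 1 of 15 bound and 11 of 41 unbound other hosts, and in 7.68% of bound protein-coding genes. CGATA, which is contained in the DRE, was in 69.4% of hosts and 53.0% of protein-coding genes. GAGAG was in 44.7% of hosts against 36.3%, with the classes on opposite sides: 6 of 29 ribosomal protein hosts (20.7%) and 32 of 56 other hosts (57.1%) held it, 11 of 15 among the bound ones of the latter, against 47.6% of bound protein-coding genes. GGTCACAC was in 14.1% of hosts against 8.71%. The 29 ribosomal protein hosts and the 59 ribosomal protein genes without a snoRNA gene were close for each of these motifs. The DRE was in 27.6% and 30.5% of them, CACGTG in 13.8% and 13.6%, and CGATA in 72.4% and 74.6%. GAGAG was in 20.7% and 20.3%, and GGTCACAC in 17.2% and 16.95%. Among ribosomal protein genes, then, none of these shares was particular to hosts. For each motif a gene was counted if any of its start sites had a match, and the sets were not matched for number of start sites. Of the 85 hosts, 41 have 1 start site, against 10246 of 13945 protein-coding genes. A match describes letters in this window and says nothing of a factor on them.

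Of the 15 hosts that carry 5 or more snoRNA genes, 7 were bound (46.7%) and 8 were not. Of the 7 Uhg genes, non-coding hosts that together carry 48 snoRNA genes, 1 was bound (14.3%), a share near that of protein-coding genes (14%). This was Uhg4, with signal 45.4, 110.3 and 64.9 in replicates 1, 2 and 3, its summit 69 bp upstream and rank 1061 in the optimal list. Uhg1, with 16 snoRNA genes, had a pooled-list summit 142 bp upstream at rank 6752, below the optimal list. Uhg8 had one at rank 10920, and Uhg2, Uhg3, Uhg5 and Uhg7 had none within 500 bp. Uhg7 lies inside RpL23A, so its 4 snoRNA genes also count under that bound host.

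Of the other hosts, Arpc2, a subunit of the Arp2/3 actin-nucleating complex, carries 17 H/ACA genes, the most of any host. It had a pooled-list summit 18 bp upstream at rank 8864, with signal 26.4, 35.3 and 10.8 in replicates 1, 2 and 3. dom, which encodes the Domino chromatin remodeller, carries 15 snoRNA genes and had no listed summit within 500 bp. Nop60B, the pseudouridine synthase itself, carries 7 and had a pooled-list summit at rank 9112. Hrb98DE, an hnRNP protein, carries 7 and had one at rank 5738. RpL3 had one 11 bp downstream of its start at rank 6014. CG10576 and lncRNA:CR45184, with 5 snoRNA genes each, had none, and the latter's snoRNA genes also lie in the bound Sf3b3.

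Below the optimal list, 21 of the 50 unbound hosts (42.0%) had a pooled-list summit of some rank within 500 bp, against 28.9% of unbound protein-coding genes. Counting bound hosts too, 56 of 85 hosts (65.9%) had one, against 38.8% of protein-coding genes. That order did not hold at every number of start sites. With 1 start site the shares were 58.5% of hosts and 30.4% of protein-coding genes, and with 2 they were 75.0% and 54.95%. With 3 or more the hosts were lower, at 70.8% against 78.5%. The shares of unbound genes were not split in this way. Among the unbound hosts the highest were CG42564 at rank 4586, RpS29 at rank 4784, RpL5 at rank 4873, hts, the fly adducin, at rank 5172 and CG43051 at rank 5572. Hrb98DE, RpS9, RpL3, RpL15 and Tudor-SN, a nuclease, followed, down to rank 6625. Of the 29 ribosomal protein hosts, 26 had a pooled-list summit of some rank.

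The shares of bound hosts by chromosome arm rest on few hosts and moved between lists. In the optimal list 8 of 11 hosts on X were bound (72.7%), against 13.6% of protein-coding genes there, and 3 of 16 on 2L (18.75%), against 14%. The values were 7 of 20 on 2R (35.0% against 12.6%), 8 of 20 on 3L (40.0% against 15.3%) and 8 of 17 on 3R (47.1% against 14.4%), and the single host on chromosome 4, RpS3A, was bound. The order of the arms did not hold in the replicates: X had 45.5%, 63.6% and 27.3% in replicates 1, 2 and 3 and 18.2% with peaks repeated in all 3, where 3R had 35.3%, and 2L had 43.75% in replicate 1. Of the 8 bound hosts on X, 6 encode ribosomal proteins, and CR33222 shares the peak of one of them.

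Of 20 genes for snoRNA-binding and assembly proteins, 4 were bound (20%), a share not far from the 14% of protein-coding genes. pont, an AAA+ ATPase of the complex that assembles snoRNPs (snoRNA-protein particles), had signal 46.2, 142 and 73.6 in replicates 1, 2 and 3, with the summit 119 bp upstream. NHP2, a core protein of H/ACA particles, had signal 54.3, 84.4 and 50.5, with the summit 206 bp upstream. Rrp6, a nuclease of the exosome, which trims snoRNA ends, had 36.7, 62.0 and 44.0, and Nopp140, a nucleolar chaperone of snoRNPs, had 24.8, 39.5 and 25.9. The first 3 ranked among the top regions of all replicates and Nopp140 in 2.

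None of the other core proteins was bound: Fib (fibrillarin), nop5, Nop56 and hoip of the C/D particle, or Nop60B, Gar1 and Nop10 of the H/ACA particle. Fib, nop5, hoip, Gar1 and Nop10 had no listed summit within 500 bp at any rank. rept, the partner of pont, had a pooled-list summit at rank 5002, and Nop56, CG10055 and CG11920 had one at ranks 13698, 14442 and 15378. CG10341, coil, Nop17l, spag, CG8939 and Rrp4 had none, so 11 of the 20 genes lacked any (55.0%), against 61.2% of protein-coding genes. Fib, nop5 and Nop60B are themselves snoRNA hosts.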

How the data were processed

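Per the labels' protocols, ChIP used an anti-GFP antibody on prepupae carrying CG8319-GFP; chromatin was sheared to 200 to 800 bp. The authors deposited 5 peak lists on dm6 (1 optimal, 1 pooled and 3 replicate lists), each called with a control alignment, per the deposited text notes. The deposited signal value of each peak is the caller's own, its scale differs between lists, and it was used here only to describe and rank peaks within a list. Which aligner and caller were used, and with what threshold, is not given in the sources used here. Lists on dm3 were not used here. No normalization between lists was applied.

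Summits (counted from 1) were placed against Ensembl release 115 start sites (23998 on the 6 arms), with the RefSeq Release 6 genome for sequence, whose arm lengths equal those of its annotation. A gene was called bound with an optimal summit within 500 bp. Replicates entered by their 4410 strongest regions, and an overlap of 1 bp or more tied a replicate region to a peak. Ribosomal protein genes were taken by symbol (88 genes, sta included). Python 3.11.15, numpy 2.4.6, pandas 2.3.3 and matplotlib 3.10.9 were used, and the distance search was tested on simulated data. No test was run: the design has 1 group, and shares are described beside those of all genes. The replicates share 1 line, so their SD covers collections of that line. Alternatives were windows of 200 and 1000 bp, the stronger 2205 optimal peaks, peaks repeated in all 3 replicates, hosts by overlap, the outermost start, 2205 regions per replicate, summit inside the peak, and each replicate left out.

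Named genes are all snoRNA genes near an optimal summit, the 25 strongest bound hosts, the 10 unbound hosts with most snoRNA genes, the 10 highest below the list and 20 snoRNP genes; some items are not reported here, and other names were chosen after their values were seen. The members and lists were chosen with earlier results of these data known.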

Additional observations from a re-analysis of the deposited data

How the results depend on the processing

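The directions held under every alternative for which a background share was taken: snoRNA genes stayed below all genes and hosts above protein-coding genes. The sizes moved. The share of snoRNA genes near an optimal summit, 3.89%, was 0.389% at 200 bp (all genes 7.34%) and 14.01% at 1000 bp (15.3%), where 25 of the 26 genes gained lie in a bound host. It was 1.56% with the stronger 2205 optimal peaks, 1.95% with peaks repeated in all 3 replicates and 0.389% when each peak went only to the gene with the nearest start, an alternative chosen after seeing the data. The share of bound hosts, 41.2%, was 30.6% at 200 bp (protein-coding genes 9.00%), 23.5% with those 2205 (8.28%), 27.1% with peaks of all 3 replicates (9.63%), and 32.9% both with the outermost start only (11.9%) and with the nearest-start alternative (10.2%). The share of snoRNA genes in a bound host, 40.9%, was 26.85% with the stronger 2205 and 28.4% with peaks of all 3 replicates. With 2205 top regions, the replicate means were 22.75% for hosts and 1.69% for snoRNA genes. No background share is given at that setting, so the direction is not shown for it. Leaving out 1 replicate at a time gave 37.1% to 40.0% for hosts, 3.89% to 4.475% for snoRNA genes and 24 to 27 hosts whose peak was in the top of each remaining replicate (23 with all). No paired analysis was possible because there is only 1 group of samples. Depth is unknown, so hosts without a peak are not shown to lack binding. Genes sharing a peak, as RpS6, CR33222 and bys do, could not be separated.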

Other observations

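By the target named in the symbol, 59 of 114 snoRNA genes for 28S ribosomal RNA lay in a bound host (51.75%), against 20 of 67 for 18S ribosomal RNA (29.9%) and 11 of 24 orphans (45.8%). Arrays of genes of 1 name share a host and are not independent: Arpc2, which is not bound, holds 10 genes named Psi18S-525 and 7 named Psi18S-640, and bound RpS5a holds 6 named Psi28S-1135. With a final copy letter removed only where it follows a digit, 119 of all snoRNA genes belong to 37 names with more than 1 gene. Copies lettered otherwise, as U31:54Eb and U31:54Ec in Uhg1 or lola-a and lola-b, are not joined, so copies are undercounted. These groupings were chosen after the values were seen.

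The heptamer ATGCAAC, searched for because it recurs in the printed promoters, lies 13 to 24 bp from the optimal summit in 4 bound hosts, RpL14, RpL28, RpL4 and RpS5a, each time on the coding strand. It was in 4 of 20 bound and 0 of 9 unbound ribosomal protein hosts. Of bound ribosomal protein genes without snoRNA genes, 1 of 33 held it. The heptamer was in 5.41% of protein-coding genes and in 7.68% of bound ones. It was in none of the 15 other bound hosts and in 4 of 41 other unbound hosts. Being chosen from the same sequences, it is a description of these promoters.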
